A study of Homo sapiens with 42 samples.

Results

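The kidney lineage transcription factors PAX2, PAX8, HNF4A, LHX1, WT1 and EMX2, together with LHX5 and the carcinoma factor ZNF395, were followed through RNA-seq libraries of 786-O cells. These 8 genes were taken by symbol from the 60609 genes of the count tables. LHX5 was chosen by its measured level, because cells with the disordered region of HIF-2α switch it on, so its values are a description with no test. The other 7 were chosen by name as factors of renal epithelium or clear cell renal cell carcinoma (ccRCC), with earlier results of these data known.

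786-O is a human ccRCC line that lacks VHL, the ubiquitin ligase that marks HIF-α for degradation, so its HIF-2α is stable, and it makes no functional HIF-1α. Poly-A RNA was sequenced in 2 batches, with 3 biological replicates in each group and 42 libraries in all. Batch 1 held WT cells, HIF-1β KIN (clone A21, V5-Halo inserted at the gene of HIF-1β), HIF-2α KIN (clone A31, the same tag at the gene of HIF-2α), and WT cells that stably expressed V5-Halo-tagged HIF-1α, HIF-1α R30E, HIF-1αDM, HIF-2α, HIF-2α R27E or HIF-2αDM. Batch 2 held WT cells and cells with V5-Halo-tagged HIF-1α, HIF-2α or either of a pair of chimeras. Each KIN line is a single clone. Each transgene was inserted by PiggyBac transposition with puromycin selection and driven by the weak L30 promoter, and all of these lines kept their own untagged HIF-2α. R30E and R27E alter the DNA-binding domain. DM stands for dimerization mutant, R170A with V191D in HIF-1α and R171A with V192D in HIF-2α. The genotype label of the HIF-2αDM libraries names HIF-1α, but the title names HIF-2α, and EPAS1, the gene of HIF-2α, stood at 652 to 808 CPM in them against 187 to 247 in WT. The chimera HIF-2α/1α joins residues 1 to 365 of HIF-2α to residues 364 to 826 of HIF-1α, and HIF-1α/2α joins residues 1 to 363 of HIF-1α to residues 366 to 870 of HIF-2α. The 4 lines of batch 2 therefore cross the N-terminal structured domain (DNA binding and dimerization) with the C-terminal intrinsically disordered region (IDR).

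PAX2 and PAX8 are paired box factors that start nephron formation in the embryo, and PAX8 protein is a routine stain for renal tumours. LHX1 is a LIM-homeodomain factor of the early tubule. Its closest relative, LHX5, is known from the developing forebrain rather than the kidney. WT1 acts in nephron progenitors and podocytes, EMX2 in the urogenital primordium, and HNF4A in proximal tubule cells. ZNF395 is a zinc finger factor overexpressed in ccRCC.

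Levels are given in CPM, the reads of a gene per megaread of its library, scaled by edgeR's TMM method within each batch, so levels of different batches were not tested against each other except as responses to a line. A gene was called where its adjusted p (edgeR quasi-likelihood test, Benjamini-Hochberg over all tested genes) was at most 0.01 and its change at least 2-fold. Libraries held 42377599 to 101186554 counts in batch 1 and 76366799 to 109642159 in batch 2, so that 3 counts, taken as the floor of detection, were worth 0.0313 to 0.0706 and 0.0271 to 0.0399 CPM. The libraries numbered 3 of batch 1 were the deepest of each group, with 72801922 counts or more. In the libraries numbered 3, PAX8 and WT1 were the highest and LHX1 the lowest of their group in 9 of 9 groups, which widened the spread of batch 1. With the library number as a block in the fit, the number of members called was the same in every comparison. All 11 genes of a list of renal epithelium and ccRCC markers were over the floor in at least 1 library of each batch, although CA9 was at or under it in every WT library. The 5 leukocyte markers summed to at most 0.610 CPM in any library and the 4 endothelial markers to at most 0.498 CPM. The 4 fibroblast and pericyte markers summed to 4.79 to 6.68 CPM in WT of batch 2, 7.67 to 9.02 CPM with HIF-1α, HIF-2α/1α and HIF-2α, and 4.66 to 5.43 CPM with HIF-1α/2α. Among them ACTA2 was called higher and LUM lower in all 4 lines, and PDGFRB was called lower with HIF-1α/2α (log2 change -2.19). In batch 1 the sum of these 4 markers was 3.93 to 6.17 CPM in WT, 14.7 to 22.6 CPM in HIF-2α KIN and 2.98 to 9.05 CPM in the other groups, with DCN at or under the floor in every library. PDGFRB was called higher in HIF-2α KIN (2.84). The part of these markers in the results was not tested.

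Since every library of the lines with a functional HIF-α transgene held less PAX2 than every WT library of its batch, the sequence before its starts is given. In the RefSeq table (GRCh38.p14), 2 PAX2 starts were listed, each with 250 bases before it, on the plus strand at chr10:100735146-100735395 and chr10:100745332-100745581. Capitals mark the core of the hypoxia response element to which HIF dimers bind, searched as ACGTG and GCGTG on both strands.

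PAX2 upstream start: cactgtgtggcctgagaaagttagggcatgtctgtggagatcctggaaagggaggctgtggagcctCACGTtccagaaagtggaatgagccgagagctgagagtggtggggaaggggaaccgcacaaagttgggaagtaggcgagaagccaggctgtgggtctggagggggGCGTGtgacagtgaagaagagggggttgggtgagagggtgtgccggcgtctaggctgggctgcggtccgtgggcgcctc

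PAX2 downstream start: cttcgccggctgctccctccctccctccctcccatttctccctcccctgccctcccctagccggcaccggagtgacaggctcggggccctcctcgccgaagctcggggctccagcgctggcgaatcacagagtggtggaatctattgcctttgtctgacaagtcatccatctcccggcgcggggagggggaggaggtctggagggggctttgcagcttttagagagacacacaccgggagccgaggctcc

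The window at the upstream start held 2 matches, beginning 184 and 79 bases before the start, and the window at the downstream start held none of these letters. Of 35116 windows of this length in the table, 43.2% held at least 1 match. The table had windows for 5 of the 8 genes (PAX2, PAX8, HNF4A, WT1 and EMX2), 10 windows in all, of which 4 held a match. The match is a description of the letters, and no binding was measured here.

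The 8 genes differed widely in level. Per kilobase of exon, PAX8 was the most abundant in WT cells of batch 1, at 65.8 ± 9.37 CPM per kb (SD, n = 3). ZNF395 followed at 11.9 ± 0.797 CPM per kb, PAX2 at 4.00 ± 0.730, WT1 at 2.81 ± 0.586 and LHX1 at 1.04 ± 0.183. The WT libraries of neighbours in this order did not overlap, except those of PAX2 and WT1. In WT cells of batch 2 the order was PAX8 (41.2 ± 2.13 CPM per kb), ZNF395 (9.86 ± 0.378), WT1 (3.08 ± 0.0912), PAX2 (2.25 ± 0.0662) and LHX1 (0.872 ± 0.140), with no overlap between neighbours. LHX5, HNF4A and EMX2 were at or near the floor in WT.

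**Figure D1:**
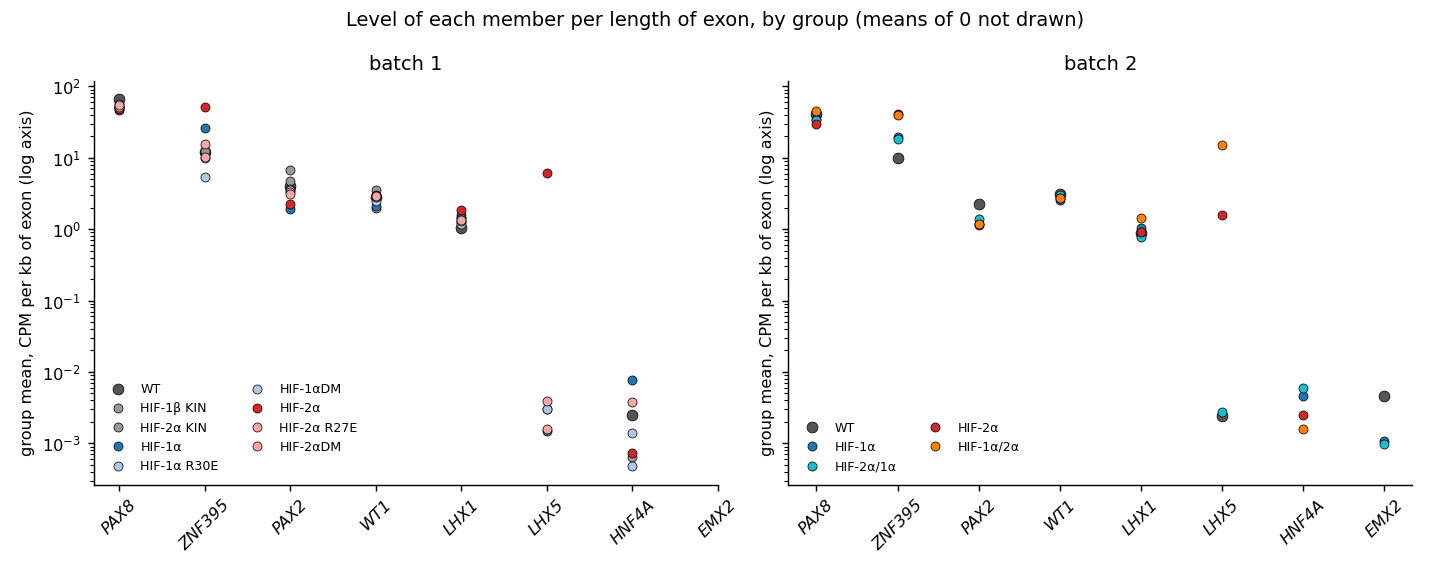
Group means of the 8 genes in CPM per kilobase of exon, on a log axis, with batch 1 on the left and batch 2 on the right. Each point is the mean of 3 libraries of a group, means of 0 are not drawn, and points under 0.01 rest on at most 10 counts in any library. PAX8 stays at the top in most groups, ZNF395 reaches 51.6 CPM per kb with HIF-2α in batch 1, and LHX5 leaves the floor in the lines with the 2α-IDR.

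The LIM-homeodomain gene LHX5 (ENSG00000089116, chr12:113462033-113472280, minus strand) was read in strength in 3 groups only. In batch 1 the HIF-2α libraries held 14.7, 16.8 and 25.0 CPM of LHX5, a mean of 18.8 ± 5.45 CPM. In batch 2 the HIF-2α libraries held 4.96, 4.77 and 4.99 CPM (mean 4.91 ± 0.120), and the HIF-1α/2α libraries held 40.7, 48.6 and 49.6 CPM (mean 46.3 ± 4.88). In each of these groups the transgene joined the IDR of HIF-2α to an unmutated structured domain, while WT cells and the KIN clones had HIF-2α from their own gene only. The 33 libraries of the other 11 groups held 0 to 2 counts of LHX5, and 23 of them held none.

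Against the highest floor of the WT libraries of the same batch, the mean of LHX5 was at least 435-fold higher with HIF-2α in batch 1, at least 146-fold higher with HIF-2α in batch 2, and at least 1379-fold higher with HIF-1α/2α. Within batch 2 the HIF-1α/2α mean was 9.43 times the HIF-2α mean, and the libraries of these lines did not overlap. Per kilobase, LHX5 reached 15.1 CPM per kb in HIF-1α/2α cells, 10.6 times the level of LHX1 in the same cells. The cells thus held more LHX5 than LHX1 RNA there, while WT cells held LHX1 and no more than 2 counts of LHX5 in any library. In bulk RNA, more cells that make LHX5 and more LHX5 RNA per cell cannot be told apart.

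EPAS1 reads, which count the cell's own gene and the transgene together, were set beside LHX5. In batch 1, EPAS1 stood at 605, 618 and 774 CPM in the HIF-2α libraries, at 695, 837 and 1000 in HIF-2α R27E and at 808, 652 and 714 in HIF-2αDM. The mutant lines thus carried EPAS1 RNA in the range of the HIF-2α line or above it, with 0 to 2 counts of LHX5. In batch 2, the EPAS1 mean of HIF-1α/2α was 1.21 times that of HIF-2α, against the 9.43 times of LHX5. The HIF-1α/2α transgene carries only residues 366 to 870 of HIF-2α, so fewer reads per transcript can fall on EPAS1 than from full-length HIF-2α. The 1.21 is therefore a ratio of reads and not of transgene transcripts. The part of transgene level in the LHX5 level was not tested.

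**Figure D2:**
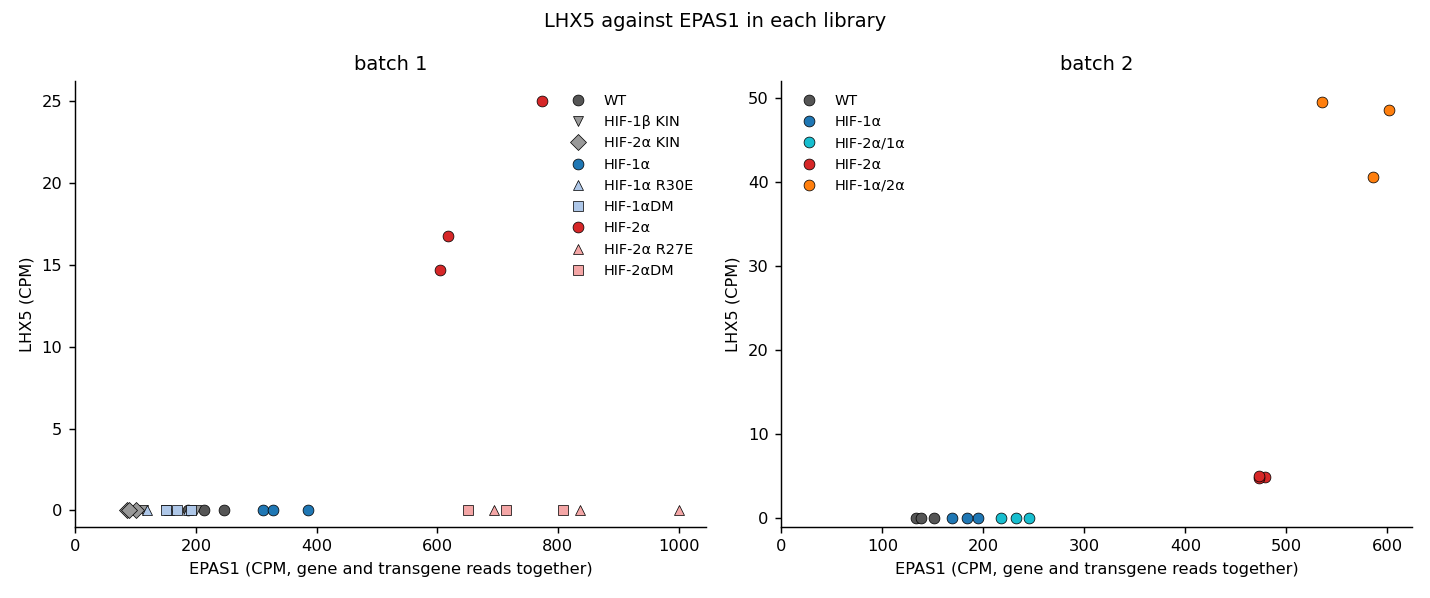
LHX5 (CPM) against EPAS1 (CPM, reads of the gene and of the transgene together) in each library, batch 1 on the left and batch 2 on the right. The 3 HIF-2α libraries of batch 1 lie at 14.7 to 25.0 CPM of LHX5, and the 6 libraries of HIF-2α R27E and HIF-2αDM lie at the bottom with as much EPAS1 or more. In batch 2 the HIF-1α/2α libraries lie at 40.7 to 49.6 CPM of LHX5 and the HIF-2α libraries at 4.77 to 4.99.

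The antisense neighbour of LHX5, LHX5-AS1, which shares 29 bases of exon with it, was read in the same 3 groups. LHX5-AS1 held 2.54, 2.31 and 2.90 CPM with HIF-2α in batch 1, 0.343, 0.425 and 0.433 CPM with HIF-2α in batch 2, and 2.33, 3.19 and 2.83 CPM with HIF-1α/2α. In the 33 libraries of the other groups it held at most 4 counts. Reads had been counted without strand, so reads in the shared bases cannot be told apart.

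ZNF395 (ENSG00000186918, chr8:28345590-28402701, minus strand) gave most of the calls among the 8 genes. It was called higher with HIF-2α in both batches, with HIF-1α/2α, and with HIF-1α in batch 1. In batch 2 its mean was 1.98 and 1.85 times that of WT in the lines with the IDR of HIF-1α and 4.11 and 4.00 times in the lines with the IDR of HIF-2α, and the structured domain made no detectable difference. It was not called with either mutant of HIF-2α, and it was called lower with HIF-1α R30E.

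In batch 2, WT libraries held 55.5, 56.6 and 59.7 CPM of ZNF395. HIF-1α libraries held 121, 117 and 101 CPM and HIF-2α/1α libraries 109, 110 and 98.3 CPM. HIF-2α libraries held 247, 239 and 221 CPM and HIF-1α/2α libraries 231, 239 and 217 CPM. WT, the lines with the 1α-IDR and the lines with the 2α-IDR formed 3 steps without overlap, while lines with the same IDR overlapped.

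ZNF395 was called higher with HIF-2α (log2 change 2.04 ± 0.06 SE, adjusted p = 3.4e-29) and with HIF-1α/2α (2.00 ± 0.06, adjusted p = 5.1e-29). With HIF-1α the log2 change was 0.98 ± 0.06 (adjusted p = 1.3e-17) and with HIF-2α/1α it was 0.89 ± 0.06 (adjusted p = 5.2e-16), both just under 2-fold and so not called. Without HIF-1α replicate 3 (log2 change 1.06) or without WT replicate 3 (1.01), the HIF-1α change was called. The 4 lines share their WT controls.

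Contrasts among the 4 lines compare the domains, but each combination of domains was a single transgene line. Their SE and adjusted p cover the spread of replicates within a line, not the variation from line to line. Transgene reads also differed. The HIF1A mean was 147 CPM in HIF-1α cells against 107 CPM in HIF-2α/1α cells. For EPAS1 it was 475 CPM in HIF-2α cells against 574 CPM in HIF-1α/2α cells. A chimera carries only a part of each HIF-α, so fewer reads per transcript can fall on HIF1A or EPAS1 than from a full-length transgene. These means therefore do not rank the lines by transgene transcript. The part of line and transgene level in the domain contrasts was not tested. The IDR effect, in which lines with the 1α-IDR are subtracted from lines with the 2α-IDR, was 1.09 ± 0.04 for ZNF395 (adjusted p = 4.4e-25). The structured-domain effect, the lines with the structured domain of HIF-2α minus those with that of HIF-1α, was -0.03 ± 0.04 (adjusted p = 0.75), and the interaction, the IDR effect on the structured domain of HIF-2α minus that on the structured domain of HIF-1α, was 0.13 ± 0.08 (adjusted p = 0.39).

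In batch 1, WT libraries held 65.7, 74.3 and 67.0 CPM of ZNF395, and the KIN clones 54.9 to 80.6 CPM, overlapping WT. HIF-1α libraries held 179, 165 and 113 CPM and HIF-2α libraries 357, 249 and 293 CPM, all above every WT library. HIF-1α R30E libraries held 24.3, 36.5 and 31.9 CPM, all below every WT library. HIF-1αDM libraries held 53.8, 69.9 and 49.6 CPM, overlapping WT. HIF-2α R27E libraries held 86.0, 103 and 86.4 CPM, all above every WT library, and HIF-2αDM libraries 61.2, 62.2 and 52.8 CPM, all below every WT library.

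Against WT, ZNF395 was called higher with HIF-1α (log2 change 1.14 ± 0.20, adjusted p = 0.00021) and HIF-2α (2.12 ± 0.20, adjusted p = 1.7e-08) and called lower with HIF-1α R30E (-1.16 ± 0.20, adjusted p = 0.00025). HIF-2α R27E gave 0.41 ± 0.19 (adjusted p = 0.63) and HIF-2αDM -0.23 ± 0.19 (adjusted p = 0.82). Functional HIF-α exceeded each of its own mutants, HIF-1α over R30E by a log2 change of 2.30 ± 0.20 (adjusted p = 1.5e-08) and over HIF-1αDM by 1.40 ± 0.20 (adjusted p = 3.8e-05). HIF-2α exceeded R27E by 1.70 ± 0.20 (adjusted p = 7.9e-07) and HIF-2αDM by 2.35 ± 0.20 (adjusted p = 3.4e-09). The 8 contrasts against WT share the 3 WT libraries, and each pair of mutant contrasts shares its functional line.

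FBXO16, a neighbour on the same strand, shares 2032 bases of exon with ZNF395, so reads there could count on neither gene or on the wrong one. FBXO16 was low, at 0.603 to 2.36 CPM over the libraries of batch 2, and it was not called in any of the comparisons. Its log2 change was -0.75 ± 0.25 with HIF-1α/2α and its IDR effect -0.66 ± 0.17, opposite in sign to those of ZNF395.

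**Figure D3:**
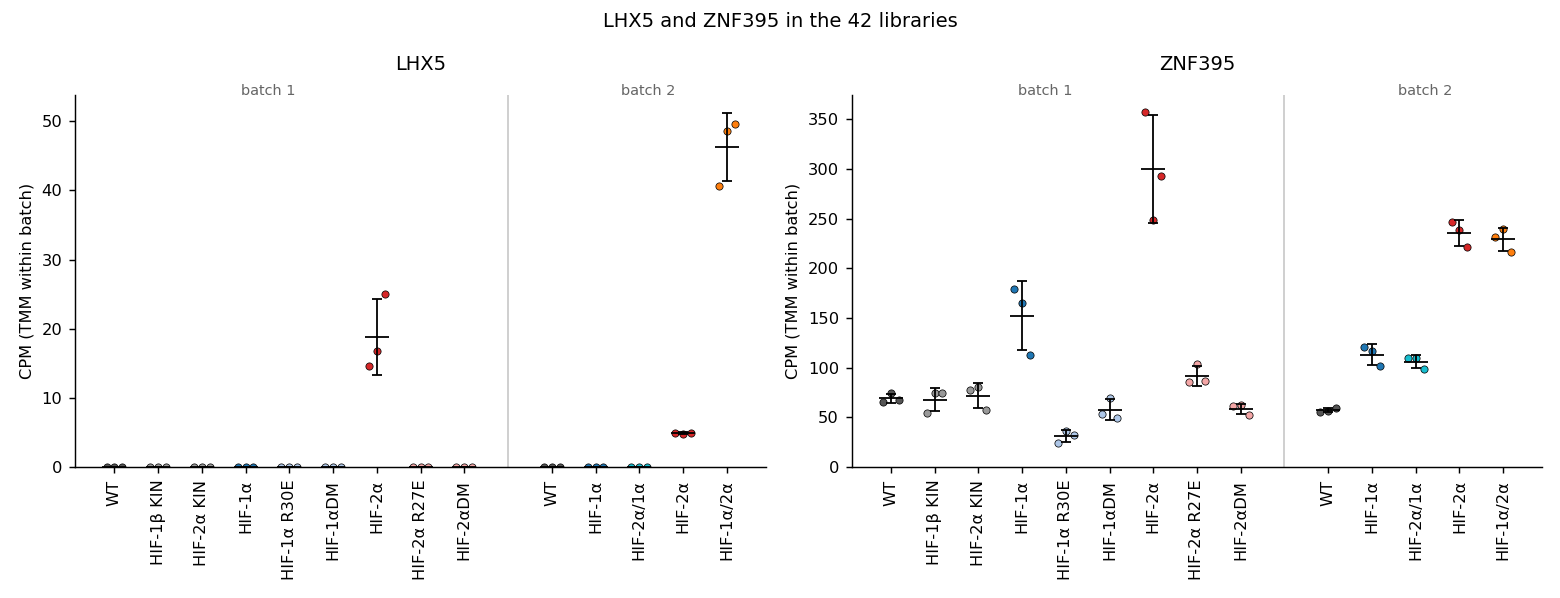
LHX5 (left) and ZNF395 (right) in CPM in the 42 libraries, with points for libraries, bars for the mean and whiskers for the SD (n = 3), batch 1 left and batch 2 right of the grey line. LHX5 is over the floor in HIF-2α and HIF-1α/2α only, and ZNF395 shows steps at 57.3 CPM (WT), 106 to 113 CPM (1α-IDR) and 229 to 235 CPM (2α-IDR) in the group means of batch 2.

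PAX2 (ENSG00000075891, chr10:100735396-100829944, plus strand) lay lower in the lines with a functional HIF-α transgene. In batch 2, WT libraries held 15.0, 14.3 and 15.1 CPM of PAX2. HIF-2α libraries held 7.73, 7.25 and 7.66 CPM, HIF-1α/2α libraries 6.99, 7.07 and 9.15, HIF-1α libraries 7.58, 7.88 and 7.51, and the second chimera, HIF-2α/1α, 9.77, 8.89 and 8.75. Every library with a functional HIF-α was below every WT library, and the line means lay at 51 to 62% of the WT mean.

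The log2 change of PAX2 was -0.97 ± 0.10 in HIF-2α cells (adjusted p = 1.1e-11), -0.94 ± 0.10 in HIF-1α/2α cells (2.6e-11), -0.95 ± 0.10 in HIF-1α cells (3.9e-11) and -0.70 ± 0.09 in HIF-2α/1α cells (9.8e-08, all edgeR adjusted p). All 4 were short of 2-fold, so PAX2 was not called in batch 2. It was called without HIF-2α replicate 1 (-1.01) and, in the other line, without HIF-1α/2α replicate 3 (-1.08). The IDR effect on PAX2 was -0.13 ± 0.07 (adjusted p = 0.15) and the structured-domain effect 0.11 ± 0.07 (adjusted p = 0.32), so neither of these averages was detectable. The interaction was not called for PAX2. The HIF-2α/1α libraries lay above every HIF-1α and every HIF-2α library, and overlapped those of HIF-1α/2α.

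In batch 1, WT libraries held 22.2, 25.1 and 31.6 CPM of PAX2, HIF-1α libraries 10.7, 14.2 and 12.4, and HIF-2α libraries 11.6, 13.5 and 20.0. Both lines lay below every WT library. PAX2 was called lower with HIF-1α (log2 change -1.08 ± 0.25, adjusted p = 0.0061), while HIF-2α gave -0.80 ± 0.25 (adjusted p = 0.033). The HIF-1α call was lost without any single HIF-1α library, or without WT replicate 2 or 3 (log2 change -0.93 to -1.19, adjusted p up to 0.044), and was kept without WT replicate 1.

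The 4 mutant lines overlapped WT in PAX2, at 15.7 to 32.1 CPM. The direct contrasts did not pass the threshold, HIF-1α against R30E at -0.93 ± 0.25 (adjusted p = 0.035), against HIF-1αDM at -0.88 ± 0.25 (0.061), HIF-2α against R27E at -0.55 ± 0.25 (0.22) and against HIF-2αDM at -0.44 ± 0.25 (0.35, all edgeR adjusted p). The HIF-1β KIN clone, with 33.3, 39.0 and 60.2 CPM, lay above every WT library, at a log2 change of 0.75 ± 0.25 (adjusted p = 0.13).

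PAX8 (ENSG00000125618, chr2:113215997-113278921, minus strand) kept a high level in all 42 libraries. In batch 2, WT libraries held 322, 297 and 292 CPM, HIF-1α libraries 264, 254 and 259, HIF-2α libraries 223, 208 and 223, HIF-2α/1α libraries 256, 241 and 247, and HIF-1α/2α libraries 334, 320 and 359. The first 3 of these lines lay below every WT library, and HIF-1α/2α overlapped WT. In batch 1, PAX8 lay between 291 and 551 CPM, with no group called. The means of all other groups, mutants and KIN clones included, lay at 70.1 to 85.9% of the WT mean. Only the HIF-1α libraries lay below every WT library.

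The log2 changes of PAX8 in batch 2 were all under 2-fold, but those of 3 lines were large against their SE. They were -0.48 ± 0.05 in HIF-2α cells (adjusted p = 1.2e-10), -0.29 ± 0.05 in HIF-2α/1α cells (1.4e-05), -0.23 ± 0.05 in HIF-1α cells (0.00044) and 0.15 ± 0.05 in HIF-1α/2α cells (0.016, all edgeR adjusted p). The structured-domain effect was -0.35 ± 0.04 (adjusted p = 3.7e-10) and the interaction -0.57 ± 0.07 (adjusted p = 1.5e-07). PAX8 was lower with the 2α-IDR than with the 1α-IDR on the structured domain of HIF-2α (218 against 248 CPM, group means) and higher on that of HIF-1α (338 against 259 CPM).

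The ratio of PAX8 to PAX2, per kilobase, joins these changes. In batch 2 it was 18.3 ± 0.936 in WT, 24.3 ± 0.931 in HIF-2α/1α cells, 25.8 ± 0.205 in HIF-2α cells, 30.2 ± 1.29 in HIF-1α cells and 39.4 ± 3.94 in HIF-1α/2α cells (SD, n = 3). In batch 1 it was 16.6 ± 0.940 in WT, 24.7 ± 3.74 with HIF-1α and 21.4 ± 2.77 with HIF-2α, and the KIN clones had the lowest means, 7.63 ± 0.617 for HIF-1β KIN and 11.2 ± 0.519 for HIF-2α KIN. Among the mutants it was 14.4 ± 0.408 with HIF-1α R30E, whose libraries (13.9 to 14.7) lay below every WT library (15.6 to 17.5). HIF-1αDM (16.3 ± 2.45), HIF-2α R27E (16.0 ± 2.92) and HIF-2αDM (17.7 ± 0.994) overlapped WT. The balance of the paired box genes thus lay further towards PAX8 in the lines with a functional HIF-α transgene. It lay further towards PAX2 in the clones and, by less, in HIF-1α R30E.

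PAX8-AS1, a long non-coding RNA on the opposite strand, shares 1651 bases of exon with PAX8, and the unstranded counts cannot separate them there. PAX8-AS1 held 10.5, 8.37 and 7.10 CPM in WT of batch 2 and 18.7, 18.1 and 16.9 CPM with HIF-1α/2α, where it was called higher (log2 change 1.05 ± 0.11, adjusted p = 7.5e-11, called in 5 of 6 fits without 1 library and at 0.93 without WT replicate 3, under 2-fold). In the other 3 lines of batch 2 PAX8-AS1 held 6.05 to 9.44 CPM.

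LHX1 (ENSG00000273706, chr17:36936785-36944612, plus strand) held 4.31, 4.96 and 3.58 CPM in WT of batch 2. HIF-1α/2α libraries held 6.84, 7.81 and 6.29 CPM, above every WT library, while the other 3 lines held 3.72 to 5.46 CPM and overlapped WT. The log2 change with HIF-1α/2α was 0.70 ± 0.12 (adjusted p = 8.1e-06), under 2-fold. The IDR effect was 0.33 ± 0.09 (adjusted p = 0.0025) and the structured-domain effect -0.53 ± 0.09 (adjusted p = 1.1e-05). HIF-1α/2α is the line in which LHX5, its relative, was highest.

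In batch 1, LHX1 held 5.74, 5.52 and 4.08 CPM in WT and 10.9, 8.49 and 8.04 CPM with HIF-2α, above every WT library (log2 change 0.84 ± 0.24, adjusted p = 0.018). The KIN clones gave 0.58 ± 0.24 for HIF-1β KIN (adjusted p = 0.26) and 0.45 ± 0.24 for HIF-2α KIN (adjusted p = 0.28). The median log2 change of all tested genes of chromosome 17, where LHX1 lies, was 0.20 and 0.42 in these clones against -0.03 and -0.04 over all tested genes, and 0.21 against 0.08 with HIF-1α/2α in batch 2. The part of a chromosome-wide shift in LHX1 was not tested.

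WT1 (ENSG00000184937, chr11:32387775-32435564, minus strand) was not called in any comparison. In batch 2, WT libraries held 25.8, 24.9 and 24.3 CPM of WT1, and the transgene lines 19.8 to 24.2 CPM, all slightly below. Its lowest line was HIF-1α, with 19.8, 20.0 and 22.5 CPM, a log2 change of -0.27 ± 0.07 (adjusted p = 0.0034). In batch 1, WT1 held 20.4, 19.9 and 28.4 CPM in WT and overlapped WT in all 8 other groups, the lowest mean being that of HIF-2α KIN (16.1 ± 3.67 CPM, log2 change -0.51 ± 0.27, adjusted p = 0.27).

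HNF4A (ENSG00000101076, chr20:44355699-44432845, plus strand) was read too rarely for a fold. Its counts were 0 to 10 in every library, and 35 of 42 libraries did not exceed the floor. In batch 2, WT libraries held 0, 0 and 0 counts, HIF-2α/1α libraries 7, 8 and 1, HIF-1α libraries 3, 8 and 2, HIF-2α libraries 1, 2 and 3, and HIF-1α/2α libraries 1, 2 and 1. In batch 1, WT libraries held 5, 1 and 0 counts. No comparison called it, and WT libraries of either batch held at most 5 counts.

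EMX2 (ENSG00000170370, chr10:117542445-117549546, plus strand) held 0 counts in all 27 libraries of batch 1. In batch 2 it held 4 counts in 1 WT library, 1 count in each of 2 others, and 0 in 12. It fell under the filter on low counts in both batches and was not tested.

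**Figure D4:**
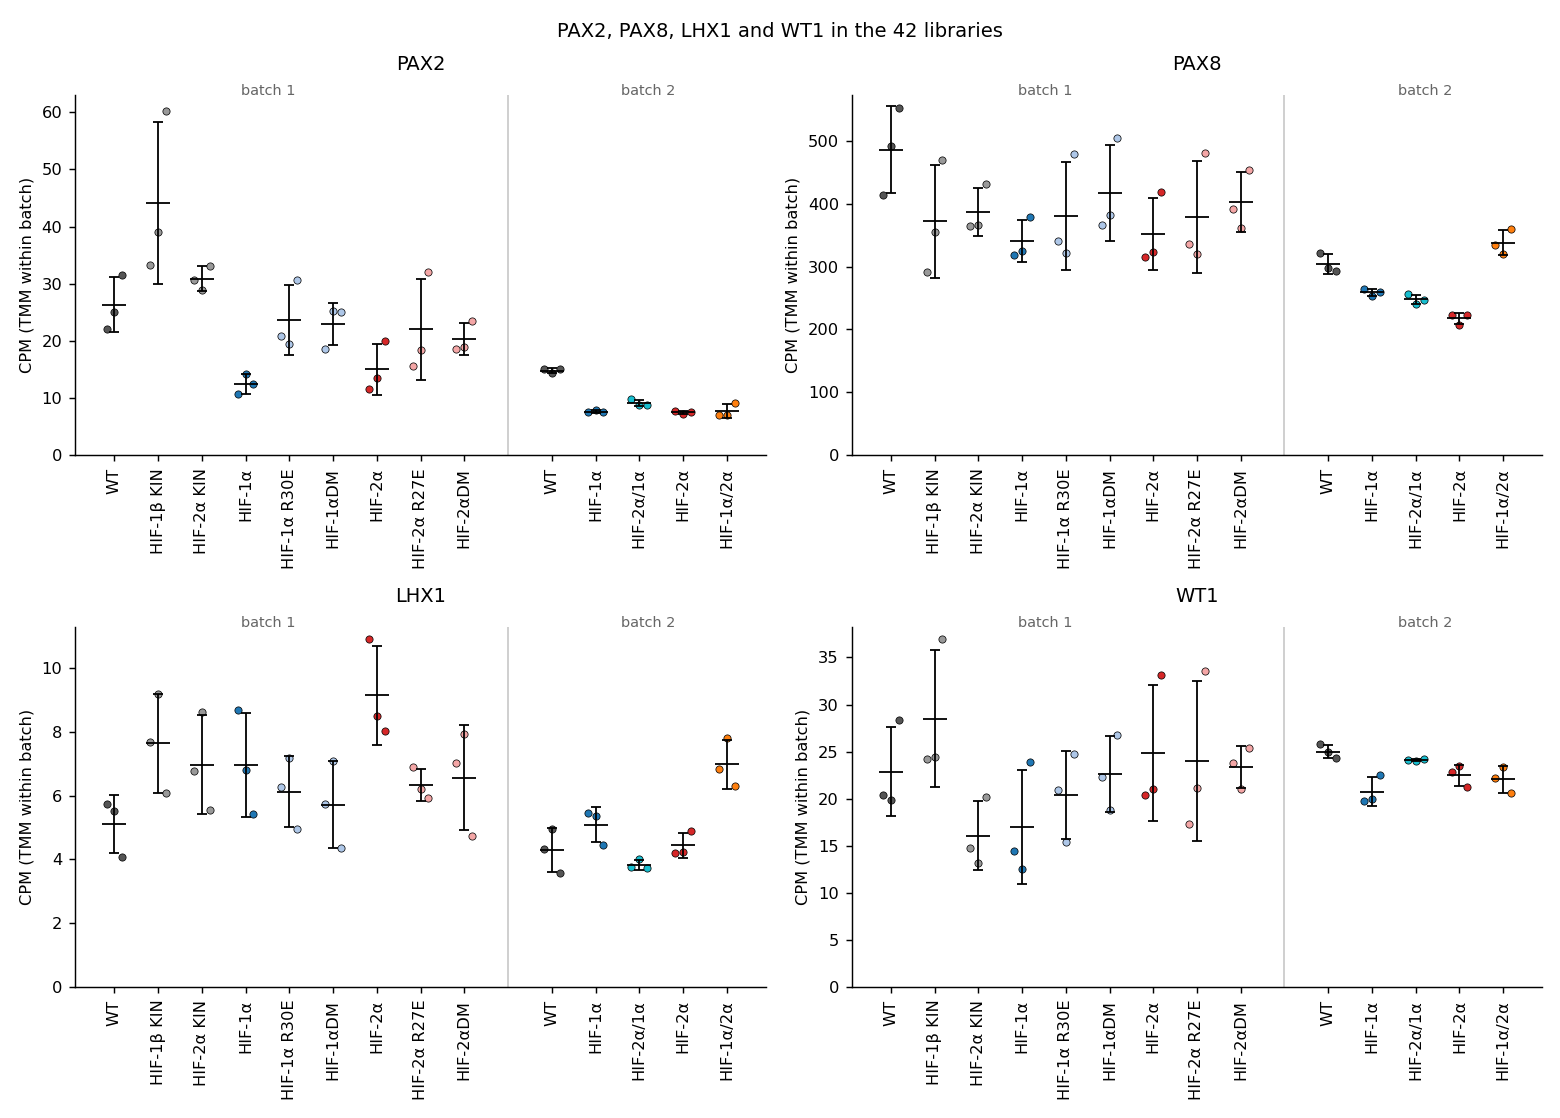
PAX2, PAX8, LHX1 and WT1 in CPM in the 42 libraries, with points for libraries, bars for the mean and whiskers for the SD (n = 3), batch 1 left and batch 2 right of the grey line. PAX2 lies lower in all 4 transgene lines of batch 2 (7.54 to 9.14 CPM, group means) than in WT (14.8 CPM), LHX1 is highest in HIF-1α/2α there, and WT1 lies between 19.8 and 25.8 CPM in the libraries of batch 2.

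With LHX5 kept out, 6 members were tested in each comparison (PAX2, PAX8, HNF4A, LHX1, WT1 and ZNF395), and EMX2 was under the filter. Their calls were counted beside the share of all tested genes called by the same rule. Against WT in batch 1, 2 of 6 were called with HIF-1α (PAX2 lower, ZNF395 higher, against 3.79% of all tested genes), 1 of 6 with HIF-2α (ZNF395 higher, against 5.72%) and 1 of 6 with HIF-1α R30E (ZNF395 lower, against 2.61%). None was called in HIF-1β KIN (1.38% of all tested genes), HIF-2α KIN (4.14%), HIF-1αDM (0.457%), HIF-2α R27E (0.496%) or HIF-2αDM (0.474%). In these comparisons without a call, edgeR gave 3, 0, 0, 1 and 1 of the 6 an unadjusted p under 0.05, and DESeq2 called 0 in each.

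ZNF395 was the single member called higher in the functional lines against their mutants. This was 1 of 6 for HIF-1α against R30E (1.75% of all tested genes called), against HIF-1αDM (1.37%), and for HIF-2α against R27E (3.63%) and against HIF-2αDM (3.96%). In batch 2, 1 of 6 was called with HIF-2α (7.58% of all tested genes) and with HIF-1α/2α (7.78%), ZNF395 in both. In HIF-1α (4.39%) and HIF-2α/1α cells (3.49%) 0 of 6 were called by edgeR and by DESeq2, with 5 and 4 at an unadjusted p under 0.05.

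The IDR effect called 1 of 6, ZNF395 (4.41% of all tested genes). The structured-domain effect (1.04%) and the interaction (1.18%) called 0 of 6 by edgeR and by DESeq2, with 3 and 2 at an unadjusted p under 0.05. The responses to HIF-1α and to HIF-2α were also compared between the batches in a joint fit, which called 0 of 6 for HIF-1α (0.00374% of all tested genes) and 0 of 6 for HIF-2α (0%). An unadjusted p under 0.05 was reached by 0 and 2 of the 6, and DESeq2 called 0. A change of the same size in both batches was not shown by this, since the joint SE of PAX2 was 0.23 and that of ZNF395 0.21 on the log2 scale.

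**Figure D5:**
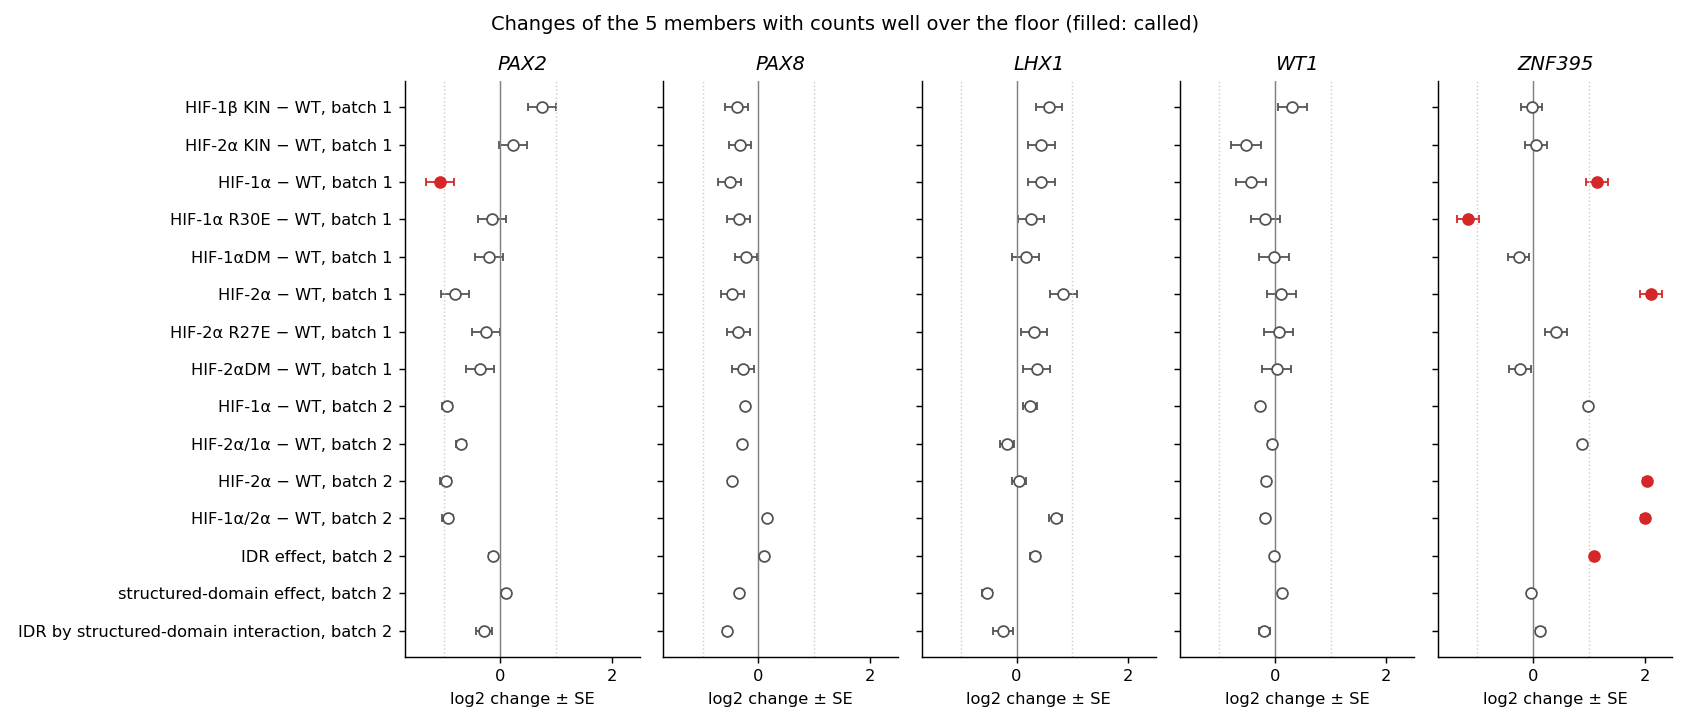
Log2 change with its SE for PAX2, PAX8, LHX1, WT1 and ZNF395 in the 12 comparisons with WT and in the IDR, structured-domain and interaction contrasts of batch 2. Filled red points are called and dotted lines mark a 2-fold change. PAX2 is called once, ZNF395 in 6 of the 15 rows shown, and PAX8, LHX1 and WT1 in none.

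Other genes of the nephron were counted from lists put together with earlier results known. Over all tested genes of batch 2, 7.58% were called with HIF-2α (1566 higher and 611 lower), 7.78% with HIF-1α/2α (1465 higher and 770 lower), 4.39% with HIF-1α, 3.49% with HIF-2α/1α and 4.41% in the IDR effect (547 higher and 719 lower), and the list counts are read against these shares. Among early nephron transcription factors, 4 of 19 tested rose and none fell with HIF-2α in batch 2 (median log2 change 0.12, against 0.07 over all tested genes), and 6 rose and 1 fell with HIF-1α/2α (median 0.22, against 0.08). In HIF-1α cells 2 rose, and in HIF-2α/1α cells 3. POU3F3, a POU factor of the nephron tubule, held 0.157 to 0.312 CPM in WT of batch 2 and was called higher in all 4 lines. It held 2.31 to 2.76 CPM with HIF-1α (log2 change 3.50), 2.29 to 3.70 CPM with HIF-2α (3.84), 17.6 to 19.2 CPM with HIF-1α/2α (6.36) and 0.515 to 0.703 CPM with HIF-2α/1α (1.45), so that lines with the same IDR did not overlap, while HIF-1α and HIF-2α did. In batch 1, POU3F3 held 5.20 to 6.83 CPM with HIF-1α and 4.52 to 9.43 CPM with HIF-2α, and at most 2 counts in any library of the 4 mutant lines. Against WT of batch 1 it was called higher with HIF-1α (log2 change 5.24) and HIF-2α (5.39). It was called lower in HIF-2α R27E, HIF-2αDM and HIF-1β KIN (-6.44 in each) and in HIF-2α KIN (-4.43). Unlike LHX5, POU3F3 was thus over the floor with the 1α-IDR and in WT cells. HOXD11, a patterning gene of the kidney, rose with HIF-2α (log2 change 1.51) and HIF-1α/2α (1.89). The gene of this list that fell with HIF-1α/2α was SALL1 (-1.11), which was called higher in HIF-2α KIN (1.06).

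Tubule and collecting duct factors were divided. Of 23 tested, 2 rose and 3 fell with HIF-2α in batch 2 (median -0.31, against 0.07 over all tested genes), and 3 rose and 4 fell with HIF-1α/2α (median -0.27, against 0.08). GATA3, a collecting duct factor, was called higher in all 4 lines of batch 2, with log2 changes of 5.06 (HIF-1α/2α), 3.46 (HIF-1α), 2.85 (HIF-2α) and 1.89 (HIF-2α/1α). ELF3, an epithelial ETS factor, fell by 2.72 on the log2 scale with HIF-2α and by 2.35 with HIF-1α/2α, and its IDR effect was -1.78. HNF4G, the paralog of HNF4A, was over the floor, at 12.3 to 12.5 CPM in WT of batch 2, and fell by 1.45 with HIF-2α and by 1.26 with HIF-1α/2α. Both lines carrying the 1α-IDR also lay below every WT library in HNF4G, by less and without a call. As a share of the WT mean, HNF4G stood at 58.5% in HIF-1α cells and 61.7% in HIF-2α/1α cells. The shares were 36.6% in HIF-2α cells and 41.5% in HIF-1α/2α cells. In the IDR effect 1 of the 23 was higher and 5 lower (median -0.43, against 0.02 over all tested genes).

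Of 19 proximal tubule genes tested in batch 2, 0 were higher and 4 lower in the IDR effect (median 0.04, against 0.02 over all tested genes), among them MIOX (-1.90), an enzyme of inositol breakdown, and PDZK1 (-1.44), a scaffold of the brush border. Against WT, genes of this list were called in both directions. ANPEP was higher with HIF-1α (log2 change 1.20) and HIF-1α/2α (1.56), and KHK with HIF-2α (1.06). MIOX was lower with HIF-2α (-1.53) and HIF-1α/2α (-1.97), PDZK1 with HIF-2α (-1.76), and GGT1 with HIF-1α/2α (-1.35). Of 9 podocyte genes tested, 4 rose with HIF-2α (median 1.95, against 0.07), 3 with HIF-1α/2α (median 1.53, against 0.08) and 2 in each of the lines with the 1α-IDR (medians 0.53 and 0.14, against 0.03 in both), and none fell. SYNPO, an actin-binding protein of the podocyte foot process, rose by a log2 change of 2.96 and 2.73 in these lines and by 1.28 in HIF-1α cells and 1.17 in HIF-2α/1α cells. WT1, the podocyte transcription factor, did not rise in any of them. A list of relatives of the PAX and LIM-homeodomain genes also held HNF4G, the paralog of HNF4A. Of its 20 tested genes, 2 rose and 2 fell with HIF-2α (median 0.71, against 0.07). LMO1 (log2 change 1.24), a LIM-only protein, was among the higher. The lower were HNF4G (-1.45) and ISL2 (-1.33), a LIM-homeodomain factor.

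Genes with the most similar pattern over the 42 libraries were taken from 12462 genes with a mean of at least 50 normalised counts in each batch, by Pearson r of log2 CPM with each batch centred on its mean. The libraries share batch, depth and library number, so r is a description. For LHX5 they were SYN3 (0.96), PTGS1 (0.96) and HSD3B7 (0.95), and for ZNF395 they were the hypoxia-inducible genes NDRG1 (0.96) and EGLN3 (0.95) and then EGR2 (0.95). For PAX2 they were ANKRD13B (0.88), DUS1L (0.83) and NAF1 (0.83), and for PAX8 they were JADE2 (0.82), PFAS (0.80) and TONSL (0.79). For LHX1 they were FLOT1, EXT2 and SUMF1 (0.75, 0.75 and 0.74). Among the 6 genes themselves, LHX5 and ZNF395 were the most alike (0.74), and PAX2 and ZNF395 the least (-0.58).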

How the data were processed

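The authors deposited a raw read count per gene for each library. They had aligned reads to hg38 with STAR, kept uniquely mapped reads, and counted them on GENCODE v32 genes with HTSeq without regard to strand. The authors' own tests used DESeq2. Libraries were grouped by their titles. Here, counts were fitted in R 4.3.3 with edgeR 4.0.16 (TMM, quasi-likelihood test), all groups of a batch in 1 model, on genes with a mean normalised count of at least 0.5 (23410 in batch 1, 28724 in batch 2, 26763 in the joint fit). Calls needed an adjusted p of at most 0.01 and a 2-fold change, as in the study's methods. The fit was tested on simulated counts. Reads of a transgene count on HIF1A or EPAS1. Gene positions and exon lengths came from GENCODE 44 on hg38. The members, lists and tests were chosen with earlier results of these data known. Named list genes were the 2 called with the largest change per direction, list and comparison, with a mean of at least 50 counts and no overlap of libraries. A selection of these is printed. Alternatives were DESeq2 (1.42.0), RLE size factors, no filter, the replicate number as a block, only the groups compared, and each library left out in turn. The p-values measure the spread between 3 replicates per group. The genes most similar in pattern to WT1 are not reported here.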

Additional observations from a re-analysis of the deposited data

Results flagged for a closer look

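The IDR effect on PAX8 differed between the structured domains of batch 2 by a test of the difference itself (interaction -0.57 ± 0.07 on the log2 scale, edgeR adjusted p = 1.5e-07, -0.61 to -0.52 without 1 library). The group means were 218 CPM with HIF-2α, 248 with HIF-2α/1α, 338 with HIF-1α/2α and 259 with HIF-1α. The difference is under 2-fold. PAX8-AS1, which shares exon bases with PAX8 on the other strand, had an interaction of -0.79 ± 0.16 (adjusted p = 0.00043), and its part in the PAX8 counts was not tested.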

How the results depend on the processing

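The number of members called (of 6) was the same under DESeq2, RLE size factors, no filter on low counts and, where it could be run, only the groups compared, in all 21 comparisons. Leaving out 1 library moved it in 5 of them, to 1 to 2 with HIF-1α in batch 1 (2 with all libraries), 0 to 1 in batch 2 for the lines with the 1α-IDR, HIF-1α and HIF-2α/1α (0 each), and 1 to 2 for HIF-2α and HIF-1α/2α (1 each). These changes were those of PAX2 and ZNF395 given above, and HNF4A, at a few counts, called without HIF-2α/1α replicate 3. Of 516 recomputed log2 changes of the members, none changed sign, 5 lost the call and 4 gained it. In batch 1 same-numbered libraries deviated together in every pair of number 3 (lowest r = 0.35), but the lowest r of number 2 was 0.06 and that of number 1 was -0.10, so that not every pair passed 0.1, and in batch 2 the mean r was 0.01 or less for each number. The block was therefore kept as an alternative. With the number as a replicate block, the members called stayed at 2 with HIF-1α in batch 1, at 1 with HIF-2α in batch 2 and at the same number in the other comparisons. LHX5 means moved by less than 1 SD under RLE. Calls over all tested genes moved by over 1.5 times in 7 comparisons: HIF-1β KIN 322 to 208 and HIF-2α against R27E 849 to 517 with only the groups compared, HIF-1αDM 107 to 204 (DESeq2), 208 (no filter) and 207 (block), HIF-2αDM 111 to 203, 209 and 209, HIF-2α R27E 116 to 196, 215 and 213, and to 5 with only the groups compared, and between batches HIF-1α 1 to 6 (no filter) and 11 (block) and HIF-2α 0 to 50 (DESeq2), 86 and 157. Why was not tested. Depth limits what can be said of HNF4A (at most 10 counts in any library), EMX2 (at most 4) and LHX5 outside its 3 groups (at most 2). Unstranded unique counts leave overlapping genes uncertain.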
